A study of Homo sapiens with 12 samples.

Results

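The 8 genes described here are the keratins KRT7, KRT8, KRT18 and KRT19 and the cholangiocyte genes SOX9, EPCAM, SPP1 and CFTR, taken by name. Their peaks of N4-acetylcytidine (ac4C), an acetylated cytidine in RNA, were those overlapping the RefSeq span of a gene (GRCh38) by 1 bp or more, whatever the strand. The knockdown list held 33 such peaks of 28047, and the control list 35 of 34365. The knockdown cells carried the lentiviral hairpin sh-NAT10, against the RNA cytidine acetyltransferase NAT10, and the control cells the hairpin sh-NC. Both are RBE cells, a line of human intrahepatic cholangiocarcinoma, and the knockdown line was selected with puromycin from resistant colonies. Each arm has 3 immunoprecipitates with an ac4C antibody and 3 inputs, 12 libraries in all. The authors deposited 1 peak list per arm, so the spread between replicates is unknown, no p-value is given and a difference of 1 or 2 peaks cannot be told from replicate error. Sequencing depth is unknown too. A missing peak can reflect less acetylation, less RNA or fewer reads, and these cannot be told apart in a peak list.

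Keratins form the intermediate filaments of epithelial cells, each filament pairing an acidic type I chain (KRT18, KRT19) with a basic type II chain (KRT7, KRT8). KRT8 and KRT18 are found in hepatocytes and bile ducts alike, whereas KRT7 and KRT19 mark the biliary epithelium and are used to recognise cholangiocarcinoma. SOX9 is a transcription factor of the biliary lineage, EPCAM an epithelial adhesion molecule, SPP1 the secreted phosphoprotein osteopontin, and CFTR the apical chloride channel of bile duct cells. Acetylation of cytidine in RNA is catalysed by NAT10.

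Peaks were found on the 4 keratins, SOX9 and SPP1 in both lists, and on EPCAM and CFTR in neither. KRT7 carried 10 peaks in the knockdown list and 11 in the control list. KRT8 carried 10 in the knockdown list and 9 in the control list. KRT18 carried 3 in both. KRT19 carried 4 in the knockdown list and 5 in the control list. SOX9 carried 6 knockdown and 5 control peaks, and SPP1 carried 2 knockdown and 4 control peaks. A pair of peaks lies in the overlap of the KRT8 and KRT18 spans and is counted for both genes. No gene gained or lost all of its peaks.

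**Figure D1:**
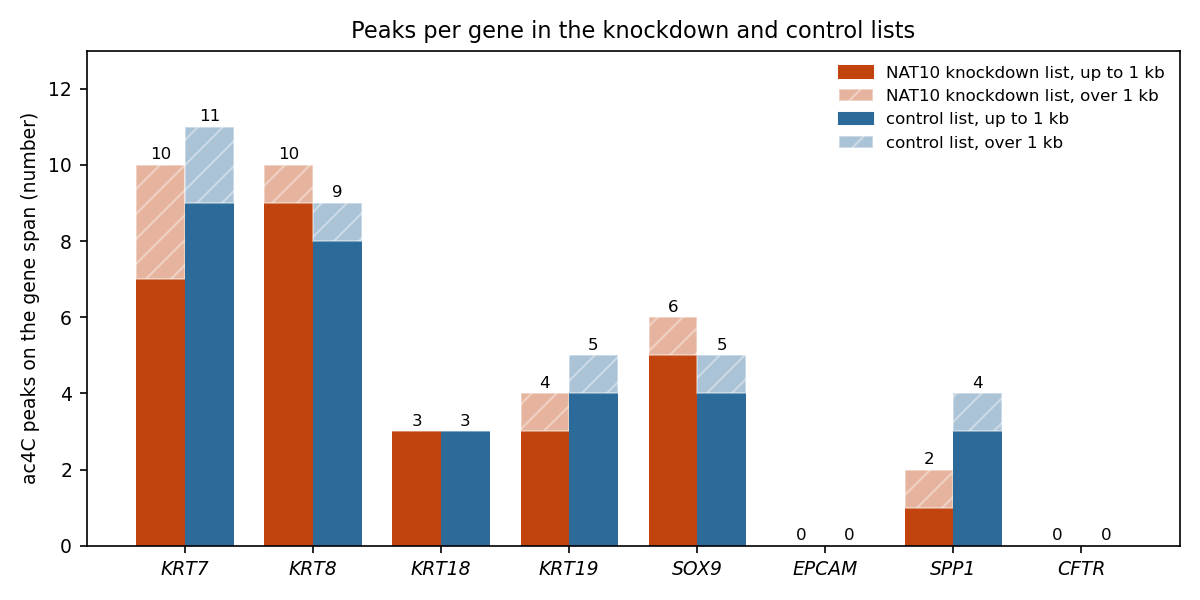
Number of ac4C peaks (vertical axis) on each of the 8 gene spans in the NAT10 knockdown list and the control list, with peaks up to 1 kb solid and wider ones hatched. KRT7 and KRT8 had 9 to 11 peaks in each list, SPP1 had 2 knockdown and 4 control peaks, and EPCAM and CFTR had 0.

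KRT7 and KRT8 carried more peaks than most genes. Ranked among the protein-coding genes marked in each list, KRT7 exceeded 95.5% in the knockdown list and 95.4% in the control list, and KRT8 exceeded 95.5% in the knockdown list and 92.2% in the control list. KRT18 stood nearer the middle, above 57.7% in the knockdown list and 54.9% in the control list. SOX9 exceeded 85.2% in the knockdown list and 75.9% in the control list, and KRT19 70.6% and 75.9%. SPP1 exceeded 37.1% in the knockdown list and 67.3% in the control list. The ranking was not matched for span length. Fewer knockdown than control peaks were present on 3 of the 6 genes with peaks (KRT7, KRT19, SPP1), against 46.1% of 10915 protein-coding genes that had any peak. More knockdown than control peaks were present on 2 (KRT8, SOX9), against 33.3%, and as many on 1 (KRT18), against 20.6%. All 6 genes with a control peak also had a knockdown peak, against 73.7% of 9449 protein-coding genes. That comparison was not matched for peak number. The 6 genes had 3 to 11 control peaks, and the median protein-coding gene with a peak in either list had 2. A lack of peaks in both lists, as on EPCAM and CFTR, was shared by 45.6% of 20056 protein-coding genes.

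Over peaks of any score, a larger share of these peaks than of all peaks lay at the same place in both lists. On the same strand, 31 of the 33 knockdown peaks met a control peak by at least 1 bp (93.9%, 95% Wilson interval 80.4 to 98.3), against 55.6% of all knockdown peaks. Of the 35 control peaks 29 met a knockdown peak (82.9%, 67.3 to 91.9), against 45.5% of all control peaks. Start, end and strand were identical for 16 peaks, 48.5% of the knockdown peaks (32.5 to 64.8) and 45.7% of the control peaks (30.5 to 61.8), against 20.0% of all knockdown and 16.3% of all control peaks. Among peaks on the protein-coding genes that both lists mark, a comparison chosen after seeing the data, 59.6% of knockdown and 53.5% of control peaks overlapped, and 20.2% of knockdown and 18.1% of control peaks were identical. Counting in both lists only peaks with a score of 20 or more, the share was 33.3% of 9 knockdown and 60.0% of 5 control peaks, against 34.9% of all such knockdown and 34.5% of all such control peaks, so the larger share of the knockdown peaks was not seen there. With an overlap of 50% of both peaks, 78.8% of the knockdown and 74.3% of the control peaks were shared, against 40.0% of all knockdown and 32.6% of all control peaks. The intervals cover counting error only and treat as independent peaks that lie together on 6 genes. Expression and depth were not matched, and their part in the result was not tested.

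Peak edges lie on a coarse grid. Of all peaks up to 1000 bp, 77.8% in the knockdown list and 82.6% in the control list had a width that is a multiple of 25 bp, which makes identical edges easier to reach. Of the 31 overlapping pairs of a knockdown and a control peak, 22 began and 21 ended at the same base, 4 had the knockdown peak wider and 11 had it narrower. Peaks up to 1000 bp on the strand of their gene covered 6319 bp in the knockdown list and 6719 bp in the control list over the 8 genes, with 5944 bp in both. These narrow knockdown peaks thus covered 88.5% of the bases of the narrow control peaks. A KRT7 control peak of 100 bp counts as uncovered, although a knockdown peak of 2150 bp, too wide to enter here, contains it.

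**Figure D2:**
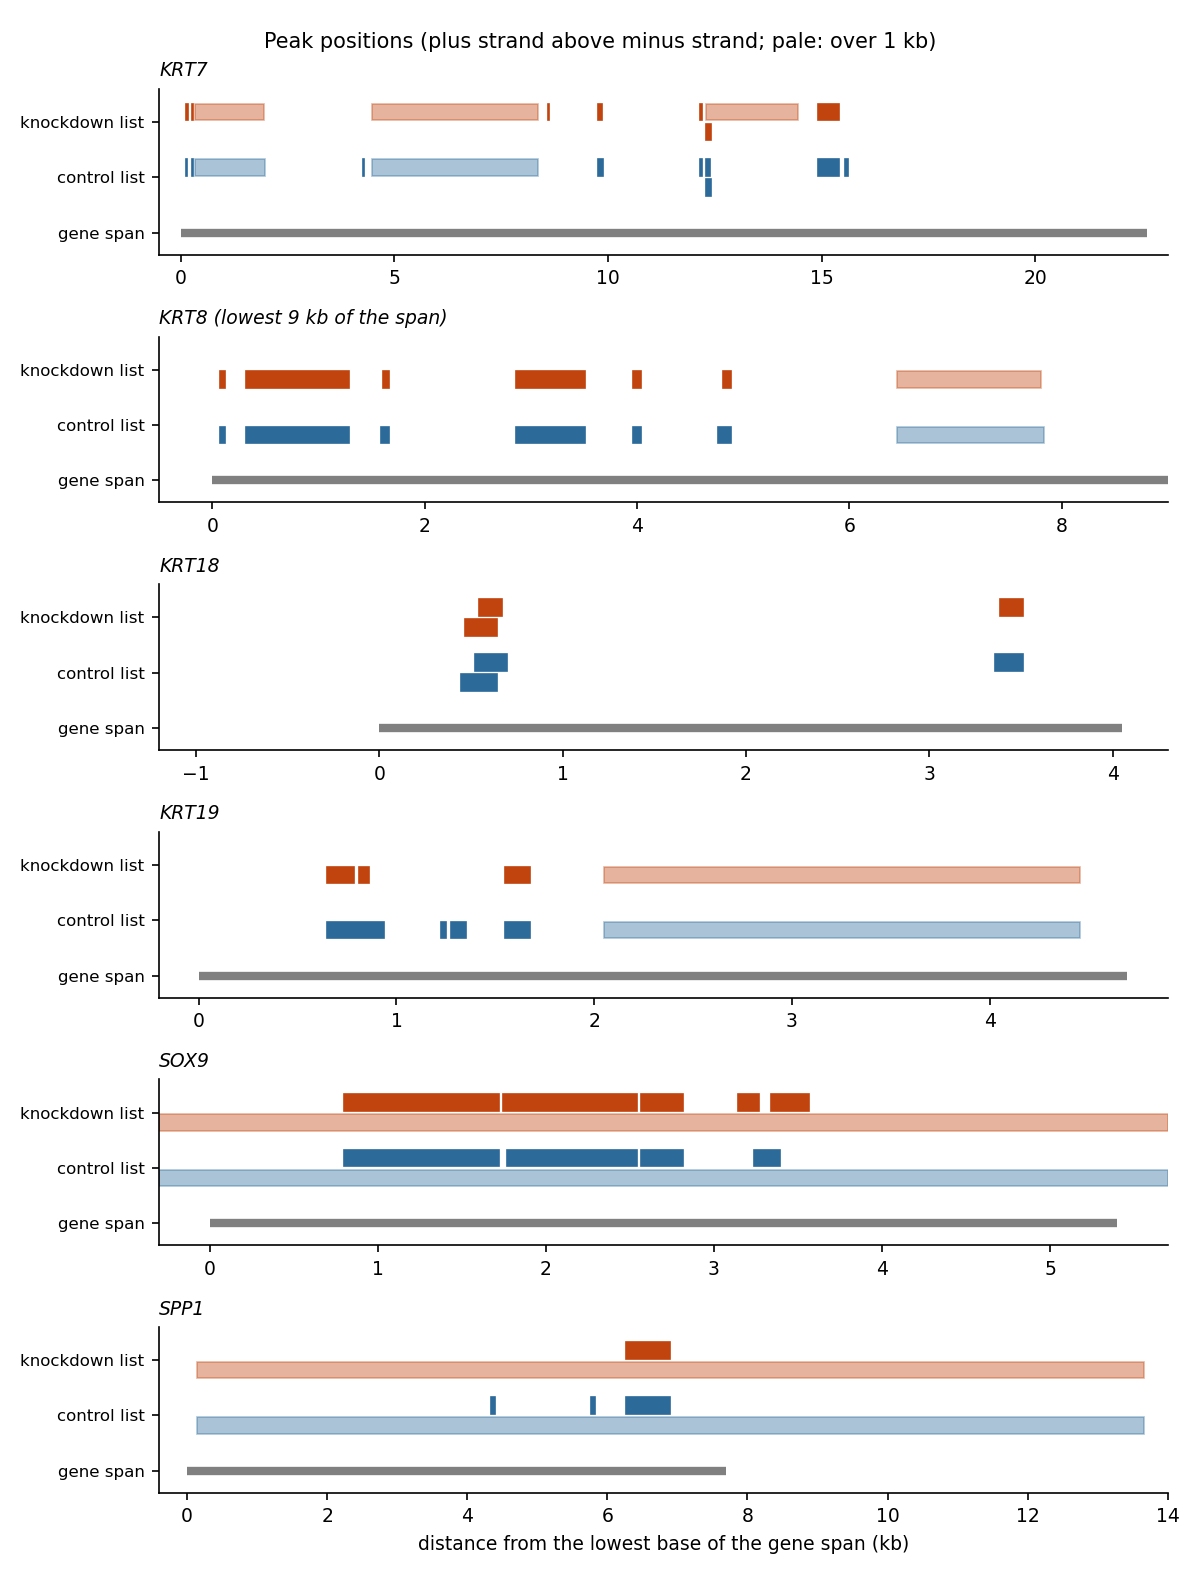
Positions of the peaks along 6 genes, in kb from the lowest base of each span (grey), with the knockdown list above the control list, plus-strand peaks drawn above minus-strand peaks, and peaks over 1 kb pale. KRT8 is shown over the lowest 9 kb of its span, and the SOX9 minus-strand peak runs beyond the panel. The KRT8 peaks lie at the same places in both lists, the control list has 2 further narrow peaks on KRT19 and on SPP1, and KRT7 has a wide knockdown peak where the control peak is 100 bp.

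KRT7, the type II keratin of ducts (chromosome 12, 52233243 to 52255853), had 9 plus-strand peaks and 1 minus-strand peak in the knockdown list, and 10 plus-strand peaks and 1 minus-strand peak in the control list. On the plus strand 8 knockdown peaks met a control peak. The peak with the highest score of this gene in both lists lay at the same place, from 52243012 to 52243111 in the knockdown list (score 31.86) and to 52243136 in the control list (score 32.98). Scores are the authors' own, on a scale that is not stated, and are read only within a list. These scores exceeded 93.9% of the knockdown list and 95.7% of the control list. A 25 bp peak near the gene start, 52233513 to 52233537, was identical in both lists with scores of 25.69 (knockdown) and 25.27 (control).

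Unshared KRT7 peaks were short. The knockdown list alone had a 25 bp peak from 52241847 to 52241871 (score 19.86). The control list alone had a 25 bp peak from 52237514 to 52237538 (score 12.19) and a 75 bp peak from 52248787 to 52248861 (score 10.91). No KRT7 peak of either list lay more than 15618 bp from the start of the 22611 bp span, and the transcribed pseudogene KRT87P, which overlaps the far end, had 0 peaks in both lists.

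The largest shift of a peak edge among the 8 genes was also on KRT7. A knockdown peak of 2150 bp (52245531 to 52247680, score 22.85) began at the same base as a control peak of 100 bp (52245531 to 52245630, score 17.07) and ended 2050 bp further on. The deposited peaks are single blocks, so such an interval can include an intron. On the minus strand both lists had the same 100 bp peak, 52245548 to 52245647, with a score of 25.12 in the knockdown list and 12.67 in the control list. It lies inside KRT7-AS, an annotated long noncoding RNA gene antisense to KRT7 (52245043 to 52247448), so without knowledge of strand handling upstream the reads of KRT7 and KRT7-AS cannot be told apart.

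The bases at the far end of the long knockdown peak are shown because the control peak does not reach them. They are the part of the RefSeq window around the KRT7-AS start that lies under the peak, chr12:52247399-52247680 (GRCh38.p14), written on the plus strand, which is the strand of the peak, with capitals for matches to CNNCNNCNNCNN, a run of CNN triplets of the kind reported around ac4C sites.

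KRT7 knockdown peak, far end: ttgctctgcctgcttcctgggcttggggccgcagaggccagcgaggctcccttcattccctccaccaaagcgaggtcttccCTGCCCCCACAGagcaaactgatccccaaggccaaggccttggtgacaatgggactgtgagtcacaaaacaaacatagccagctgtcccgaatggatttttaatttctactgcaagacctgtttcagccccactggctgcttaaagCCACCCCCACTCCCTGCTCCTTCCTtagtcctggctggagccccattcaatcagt

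Cytidine made up 97 of these 282 bases (34.4%). The motif matched at 4 starting positions on this strand, which overlap into 2 runs, and at 2 on the other strand. Of 35116 RefSeq windows of 300 bases, 90.3% held the motif on at least 1 strand, so a match does not set this stretch apart. If the long peak spans an intron, these bases may not have been in the precipitated RNA. The RefSeq windows around the starts of KRT8, SPP1 and CFTR were overlapped by no peak of these genes.

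KRT8, the partner of KRT18 (chromosome 12, 52897191 to 52949860, minus strand), had nearly the same peaks in both lists. Of its 10 knockdown peaks 9 met a control peak, and all 9 control peaks met a knockdown peak. In each list 7 of the peaks lay within the lowest 7830 bp of the 52670 bp span, which is the downstream end of the span on the minus strand. The annotation used has no exons, so the place of these peaks within a KRT8 transcript is not known. The 647 bp peak from 52900054 to 52900700 and the 75 bp peak from 52901151 to 52901225 were identical in both lists. The first scored 35.16, above 94.9% of the knockdown list, and 13.43 in the control list, above 64.3% of it. The second scored 33.51 in the knockdown list, above 94.5% of it, and 30.66 in the control list, above 95.1% of it. The only unshared KRT8 peak was a 25 bp knockdown peak from 52947962 to 52947986 (score 10.13), close to the lower edge of 10 that most scores exceed in each list.

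KRT18, the type I partner (chromosome 12, 52948855 to 52952906), lies beside KRT8 and its span overlaps that of KRT8. Both lists had the same arrangement of 3 peaks. A plus-strand peak of 125 bp in the knockdown list (52952238 to 52952362, score 12.58) and 150 bp in the control list (52952213 to 52952362, score 14.44) lay near the end of the gene and belonged to KRT18 alone. The other two lay on opposite strands within the overlap with KRT8, from 52949324 to 52949498 (minus) and 52949400 to 52949524 (plus) in the knockdown list, and from 52949299 to 52949498 and 52949375 to 52949549 in the control list. All 3 knockdown peaks were narrower than their control counterparts by 25 or 50 bp.

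KRT19, the smallest keratin and a type I chain of ducts (chromosome 17, 41523617 to 41528308), had peaks on the minus strand only. A 125 bp peak, 41525168 to 41525292, was identical in both lists, with a score of 18.96 in the knockdown list and 17.58 in the control list. A 2405 bp peak, 41525668 to 41528072, was identical too, with a score of 12.13 in the knockdown list and 12.23 in the control list. The knockdown list had peaks of 135 and 50 bp, 41524267 to 41524401 and 41524427 to 41524476, within the 285 bp control peak from 41524267 to 41524551. Control peaks of 25 bp (41524843 to 41524867, score 10.24) and 75 bp (41524893 to 41524967, score 12.61) had no knockdown counterpart. Narrow KRT19 peaks covered 310 bp in the knockdown list and 510 bp in the control list, and all of the 310 bp lay within control peaks.

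SOX9 (chromosome 17, 72121020 to 72126416) had 5 plus-strand peaks in the knockdown list and 4 in the control list, each meeting a peak of the other list. The first 3 were nearly contiguous and ran from 72121820 to 72123835 in both lists. Their scores were 11.15, 12.03 and 12.01 in the knockdown list, and 15.34, 15.49 and 15.01 in the control list. They exceeded 28.6%, 45.3% and 44.9% of the knockdown list, and 76.1%, 76.8% and 74.5% of the control list. Downstream, the control list had 1 peak of 150 bp (72124261 to 72124410, score 11.25), and the knockdown list had 1 on either side of it, of 125 bp (72124161 to 72124285, score 11.26) and 225 bp (72124361 to 72124585, score 11.23). Both of these knockdown peaks overlapped the single control peak. On the minus strand both lists had the same 61034 bp interval with a score of 0. It also reaches into the long noncoding RNA gene SOX9-AS1, whose annotated span lies beside that of SOX9 and does not overlap it.

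SPP1 (chromosome 4, 87975714 to 87983411, plus strand) had the largest difference in number. A 625 bp peak from 87981983 to 87982607 was identical in both lists. It scored 43.11 in the knockdown list, above 96.5% of its peaks, and 13.65 in the control list, above 66.1%. The control list had further 50 bp peaks, 87980058 to 87980107 (score 12.73) and 87981483 to 87981532 (score 12.01), which were absent from the knockdown list. A minus-strand peak of 13520 bp, 87975860 to 87989379, was also identical in both lists, with a score of 43.82 in the knockdown list and 16.04 in the control list. It runs 5968 bp past the end of SPP1, overlaps no other gene of the annotation, and lies on the strand opposite to SPP1.

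EPCAM (chromosome 2, 47369311 to 47387020) and CFTR (chromosome 7, 117480025 to 117668665) had no peak in either list, and neither did the genes inside them, MIR559 in EPCAM and CFTR-AS1 and CFTR-AS2 in CFTR. The nearest knockdown peak below EPCAM ended 9607 bp from the span, and the nearest control peak there, a plus-strand interval of 23729 bp, ended 375 bp from it. Around CFTR the nearest knockdown peaks were 257070 bp below and 1211563 bp above the span, and the nearest control peaks 14273 bp below and 21237 bp above. The RNA level of both genes is not in the peak lists, so the absence of a peak does not show that the RNA lacked ac4C.

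**Figure D3:**
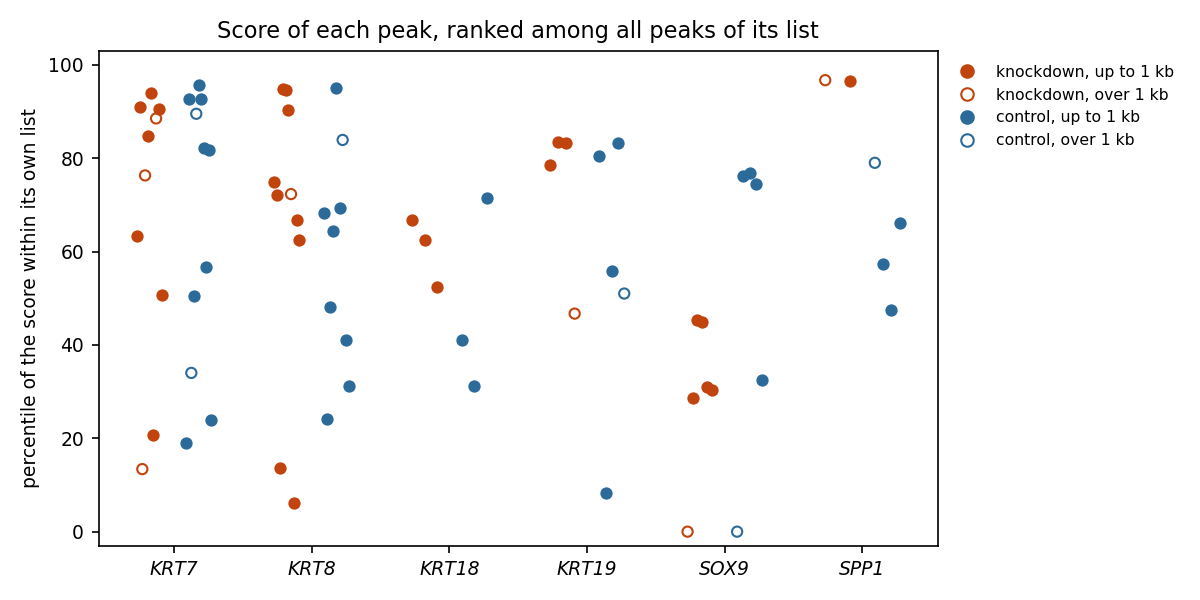
Percentile of each peak's score among all peaks of its own list (vertical axis) for the 6 genes with peaks, knockdown to the left of control, with peaks over 1 kb as open circles. Both SPP1 knockdown peaks lie above 96% of the knockdown list, and the wide one is on the strand opposite to SPP1. The 5 narrow SOX9 knockdown peaks lie between 28.6% and 45.3%, and KRT7 and KRT8 range widely in both lists.

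By score, the upper part of each list was held by few of these genes. A score of 20 or more was reached by 9 of the 33 knockdown peaks (27.3%), against 14.9% of all knockdown peaks. It was reached by 5 of the 35 control peaks (14.3%), against 12.3% of all control peaks. The 9 knockdown peaks lay on KRT7 (4), KRT8 (3) and SPP1 (2), and the 5 control peaks on KRT7 (4) and KRT8 (1). Among the 9, the minus-strand peaks of KRT7 (score 25.12) and SPP1 (score 43.82) lay on the strand opposite to the gene. All 5 control peaks lay on the strand of their gene. No peak of KRT18, KRT19 or SOX9 scored 20 or more in either list. The scores of the 2 lists may differ in depth and scale, and no change in acetylation is read from them.

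Keratin RNAs have many processed copies in the genome, and reads can be split among them, so the counts for KRT8, KRT18 and KRT19 are uncertain. Of 52 annotated copies of KRT8, 8 had a peak up to 1000 bp in the knockdown list and 9 in the control list, 13 peaks in each. KRT8P45 had 3 such peaks in both lists and KRT8P47 had 3 in the knockdown list and 2 in the control list. Of 68 copies of KRT18, 9 had a peak up to 1000 bp in the knockdown list and 12 in the control list, with 12 knockdown and 19 control peaks. KRT18P34 had 1 such knockdown peak and 3 control peaks. Of 5 copies of KRT19, 2 had such peaks in both lists, KRT19P1 with 5 knockdown and 2 control peaks and KRT19P2 with 3 knockdown peaks and 1 control peak. The KRT19 gene itself had 3 narrow knockdown peaks and 4 narrow control peaks. With peaks of any width counted, the copies of KRT18 with a peak numbered 19 in the knockdown list and 16 in the control list, so their order reversed. The copies of KRT8 with a peak then numbered 17 in the knockdown list and 20 in the control list, and those of KRT19 2 in both. The share of all pseudogenes with a peak was not computed, so these counts are not read as particular to the copies. How reads were shared between genes and copies was not tested.

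Other genes of the biliary epithelium were described through a list of 19. Of these, 13 had a peak, 11 in the knockdown list and 12 in the control list, with 10 in both, and 54.4% of all protein-coding genes had a peak in either list. More knockdown than control peaks were present on 5 of the 13 (33.3% of all genes with a peak), fewer on 4 (46.1%) and as many on 4 (20.6%). The peaks numbered 39 in the knockdown list and 36 in the control list. Of these, 24 in each list were up to 1000 bp wide, on 8 genes in each list. On some of the 10 genes with peaks in both lists, no peaks overlapped on the same strand. SLC4A2, the anion exchanger that secretes bicarbonate into bile, had 17 peaks in both, of which 13 were shared. ANXA4, an annexin, had 4 in each, of which 2 were shared, and the adhesion gene CDH1 had 3 knockdown and 2 control peaks. The median protein-coding gene with a peak had 1 knockdown peak and 2 control peaks.

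Peaks were also found on some markers of other epithelia, on 4 of 12 stratified epithelial keratins and 4 of 10 hepatocyte markers, against 54.4% of protein-coding genes. Of the simple epithelial keratins, KRT20, the intestinal one, had none in either list. The 4 stratified epithelial keratins were marked in both lists, with 11 knockdown and 8 control peaks in all. KRT80 had 6 knockdown and 5 control peaks and KRT5, a basal cell keratin, 3 knockdown peaks and 1 control peak, whereas KRT10 and KRT4 had 1 in both and KRT14, the partner of KRT5, had 0. Of the hepatocyte markers, SERPINA1 had 2 knockdown peaks and 1 control peak. HNF4A had 1 in each list, both wider than 1000 bp and without overlap on the same strand. ALB and TF had 1 control peak each and 0 knockdown peaks. Hepatocyte marker peaks thus numbered 3 in the knockdown list and 4 in the control list, with only 1 in each list up to 1000 bp wide. The other 6 of the 10 markers, APOA1 among them, had none in either list.

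**Figure D4:**
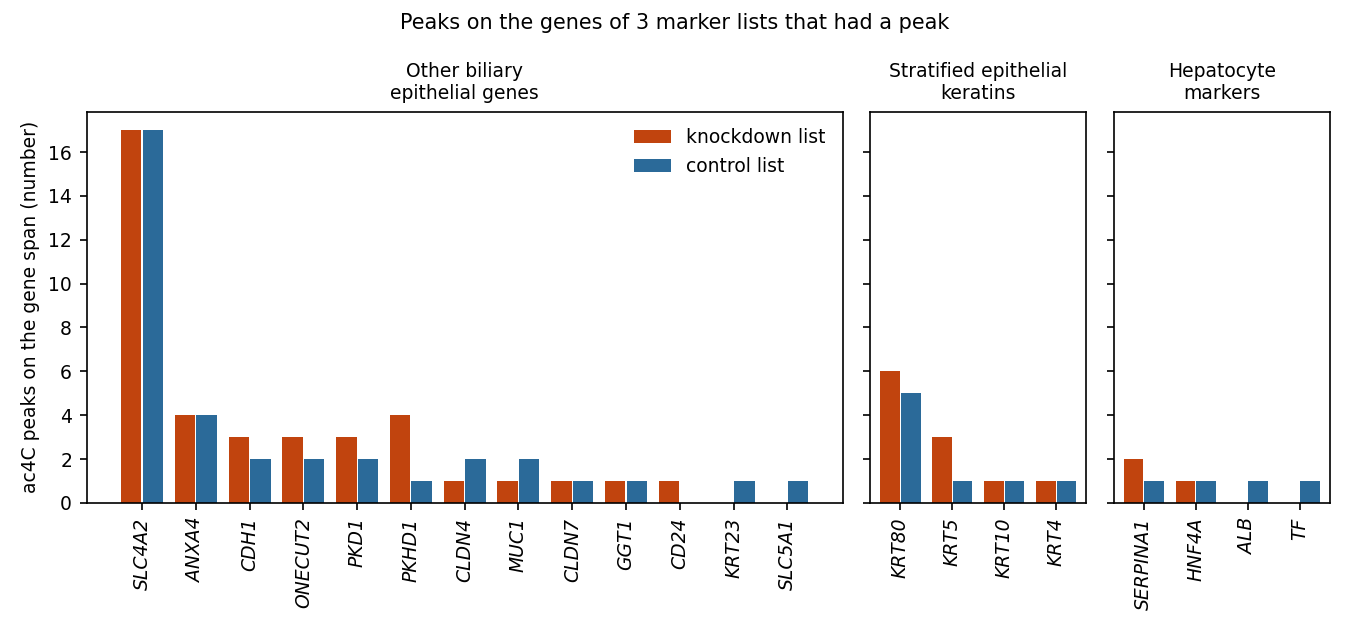
Number of peaks (vertical axis) in the knockdown list (left bars) and the control list (right bars) for the genes with a peak among 19 other biliary genes, 12 stratified epithelial keratins and 10 hepatocyte markers. SLC4A2 has 17 peaks in both lists, and no hepatocyte marker has more than 2.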

How the data were processed

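Fragmented RNA was precipitated with an ac4C antibody and sequenced, as was the input, per the labels' protocols. The submitters' processing notes name fastp 0.20.1, Bowtie2 2.4.1 and build hg38. Not given in the sources used here are the peak caller and threshold, how inputs were used and whether replicates were pooled. The authors deposited 1 list per arm with a score per peak, of unstated scale. The control list was matched by its name, and the remaining list was taken for the knockdown arm.

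Gene spans came from the RefSeq table of GRCh38.p14, which has no exons. Strand was that of the RefSeq start window (KRT8, SPP1, CFTR) or of most peaks (KRT7, KRT18, KRT19, SOX9). Positions count from 1. Overlaps were computed in Python 3.11.15 with NumPy 2.4.6, pandas 2.3.3 and SciPy 1.17.1, figures in matplotlib 3.10.9, and the overlap procedure was checked on constructed data with known counts. All 8 genes are named, and of each marker list up to 4 genes with most peaks, and of the copies a few examples. A gene of the biliary list is not reported here and was left out of its counts. KRT20, KRT14 and APOA1 were named after their counts of 0 were seen. Members, lists and settings were chosen with earlier results of these data known. Alternatives covered overlap, strand, width, score, list length and merging.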

Additional observations from a re-analysis of the deposited data

How the results depend on the processing

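The number of peaks on the 8 genes differed by 2 between the lists (33 knockdown, 35 control), and this difference depended on score. With a score of 20 or more the order reversed, with 9 knockdown and 5 control peaks (a difference of 4) on 3 and 2 genes, and 0 genes had fewer knockdown than control peaks. That setting keeps few peaks by construction. It kept 4192 knockdown peaks (14.9% of all) and 4243 control peaks (12.3% of all). The cut thus kept a larger share of the knockdown list, but not a larger number of peaks. As the score scale is unstated, the reversed order is not read as a difference between the arms. With the control list shortened by score to the length of the knockdown list, the difference was 0, at 33 peaks each. Other settings required 50% of the peak inside the span, the strand of the gene, peaks in no other gene or widths up to 1000 bp. They gave knockdown counts of 26 to 32 and control counts of 29 to 34, with the control count higher by 2 or 3. Merging joined only overlapping or touching intervals of one strand. These genes had none in either list, so it could not change the counts of 33 and 35. Peaks separated by a gap, as on SOX9, stayed apart. Narrow peaks on the strand of the gene, a setting added after seeing the data, gave 25 and 28. For KRT7, KRT18, KRT19 and SOX9 that strand was the one with most peaks, so keeping it had to retain most of their peaks. With a reciprocal overlap of 50%, sharing was 78.8% of knockdown peaks (40.0% of all) and 74.3% of control peaks (32.6% of all). At a score of 20 or more in both lists it was 33.3% of 9 knockdown peaks (34.9% of all) and 60.0% of 5 control peaks (34.5% of all). On either strand it was 93.9% of knockdown and 88.6% of control peaks, and among peaks up to 1000 bp 92.3% and 75.9%. No paired analysis was possible because each arm has 1 peak list that does not separate replicates, and for the same reason no replicate could be left out. Exons, read depth and RNA level are not in the lists, which limits every count above.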

Other observations

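Across the keratin family, a set added after seeing the data, 17 of 55 protein-coding genes had a peak, 15 in the knockdown list and 15 in the control list, against 54.4% of all protein-coding genes with a peak in either list. The 4 keratins described above held 27 of the 49 knockdown counts and 28 of the 48 control counts, with peaks on several genes counted for each. Of the other 51 keratin genes, 13 had a peak, with 22 knockdown and 20 control counts. The hair keratins KRT81 and KRT86 shared 1 wide plus-strand peak, 52277732 to 52301884 on chromosome 12, which was identical in both lists with a score of 50.09 in the knockdown list and 59.44 in the control list. KRT73 and KRT75 had 1 knockdown peak each and 0 control peaks, and KRT23 and KRT39 had 1 control peak each and 0 knockdown peaks. The control peaks of KRT23 and KRT39 were wider than 1000 bp with the same score (10.41), so they may be 1 interval counted for both.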
